A study of Homo sapiens with 24 samples.

Results

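Treated libraries of the human bladder cancer lines T24, 5637 and TCC-SUP were compared within each line, the library numbered replicate 1 against those numbered replicates 3 and 4. The members were taken from the labels for line, treatment and replicate number. There are 9 such libraries (3 numbered replicate 1 and 6 numbered replicate 3 or 4) of 24 in the series. The same contrast was made in the 9 untreated libraries of these lines, again 3 against 6.

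Cells received mitomycin C (MMC) at 75 µM for 1 h on the day after seeding, and RNA was taken 15 h after treatment; untreated cells received no drug. All are cultured cell lines, and poly(A) RNA was sequenced with a stranded kit. The treatment tag reads MCC, which was read as MMC, the drug named in the protocol. The groups used here are T24 MMC, 5637 MMC, TCC-SUP MMC, T24 untreated, 5637 untreated and TCC-SUP untreated, with 3 libraries each, which the design text calls biological replicates. Each line is a single cell line grown in culture. The labels do not say whether libraries with the same number in different lines share a day, a drug preparation or a batch, so the replicate number and any such batch cannot be told apart, and p-values measure only the spread between these libraries. Deviations of treated libraries from their group means correlated across genes between lines for the same number in 9 of 9 pairs, at 0.151 to 0.567, against -0.0451 to 0.134 in untreated libraries. The 3 lines are therefore not shown to be independent replicates of a replicate number, while the tests treat them so.

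MMC links the strands of DNA to each other. Such lesions stop replication forks and also stop RNA polymerase II on the template strand, so that a gene with a long transcribed span is more likely to carry a block than a short one. Cells commonly answer DNA damage with p53 targets such as CDKN1A, with inflammatory cytokines driven by NF-kB and AP-1, and with cell cycle arrest.

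Library totals lay between 19384501 and 28821665 counted reads in the 18 libraries. Mitochondrially encoded transcripts took 3.6%, 4.39% and 5.32% of reads in treated replicate 1 of T24, 5637 and TCC-SUP. In treated replicates 3 and 4 they took 4.2% and 3.35% in T24, 5.5% and 5.21% in 5637, and 7.4% and 6.41% in TCC-SUP. The epithelial keratin KRT18 was present in all 18 libraries. The adhesion gene CDH1 was at 0 to 0.102 CPM (counts scaled to library size) in T24 and at 15.3 to 58.2 CPM in TCC-SUP, against 141 to 177 CPM in 5637. TCC-SUP also carried fibroblast-associated transcripts, led by collagens, that summed over 9 listed genes to 6980 CPM in treated replicate 1, against 6420 and 4760 CPM in treated replicates 3 and 4. The summed level of these 9 genes was 2.22 to 74.6 CPM in T24 and 5637. Immune markers summed over 8 genes to at most 0.436 CPM in T24 and 5637, and to 9.93 to 29.4 CPM in TCC-SUP. LUM, a fibroblast marker, was at 0 to 0.108 CPM in T24 and 5637. Their part in the results, like that of the mitochondrial share, was not tested.

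Treated replicate 1 differed from treated replicates 3 and 4 at many genes in all 3 lines. Of 17962 genes tested with edgeR's quasi-likelihood test, with line as a block, 2294 (12.8%) were higher in replicate 1 and 1897 (10.6%) were lower at an adjusted p under 0.05, together 23.3% of genes. A log2 difference of at least 1 was reached by 571 (3.18%) of the higher and 567 (3.16%) of the lower genes. In untreated libraries the same contrast gave 5 higher genes (0.0278%) and 0 lower ones, with 1914 genes (10.7%) at an unadjusted p under 0.05 and 6 higher and 5 lower genes with DESeq2. A test of the difference between the treated and the untreated contrast called 839 genes (4.67%) higher and 473 (2.63%) lower. Of these, 808 and 452 (4.5% and 2.52% of genes tested) were also called in the same direction in the treated contrast itself. The replicate 1 library lay above both others in every line at 3181 genes (17.7%) when treated and at 1249 (6.95%) when untreated. It lay below both others at 2652 genes (14.8%) when treated and 988 (5.5%) when untreated. In bulk RNA, fewer cells of a type and less RNA per cell cannot be told apart.

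The counts depended on T24 and 5637 in particular. Without T24 the treated contrast called 600 genes higher and 491 lower, and without 5637 it called 733 and 513. The difference between treated and untreated contrasts called 44 genes higher and 9 lower without T24, and 1 and 0 without 5637, where 2907 genes had an unadjusted p under 0.05. Without replicate 3 it called 169 and 42. Left out singly, the treated replicate 1 library of T24 took the treated counts to 688 and 573, and that of 5637 to 970 and 783. Without replicate 4 the treated counts were 1352 and 1155.

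The size of the drug response differed between replicate numbers in the same way in each line. Over 14272 genes, the standard deviation of the log2 ratio of treated to untreated libraries of the same number was 0.722 at replicate 1 in T24, against 0.918 and 0.842 at replicates 3 and 4. In 5637 it was 0.67 at replicate 1, against 0.961 and 0.875, and in TCC-SUP 0.526, against 0.839 and 0.745. The response at replicate 1 was thus the narrowest in every line. Averaged over the lines, MMC raised 1945 genes (10.8%) and lowered 1776 (9.89%) at replicate 1. It raised 3746 (20.9%) and lowered 3831 (21.3%) at replicate 3, and raised 3166 (17.6%) and lowered 3070 (17.1%) at replicate 4. Without T24 the counts at replicate 1 were 1111 and 1151, and without 5637 they were 525 and 663. Without 5637 those at replicate 3 were 2260 and 2533 and those at replicate 4 were 1447 and 1643. The responses use the same treated libraries as the replicate contrast, so both are given below side by side as values.

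Long genes fell less at replicate 1 than at replicates 3 and 4. In T24 the treated contrast did not increase with span below 200 kb, with medians of 0.26 under 10 kb and -0.04 at 100 to 200 kb. Gene span is the distance from first to last annotated base in GENCODE release 29 (GRCh38). The median log2 difference of treated replicate 1 over treated replicates 3 and 4 was 0.05 in 5388 genes under 10 kb, 0.17 in 1842 genes of 100 to 200 kb and 0.56 in 996 genes of 200 to 500 kb. It was 0.78 in 233 genes of 500 kb or more, against 0.06 in all genes tested. Among the 1229 genes of 200 kb or more, 463 (37.7%) were higher in treated replicate 1 and 10 (0.814%) were lower. In untreated libraries 0 of these genes were called and their median was -0.05. The difference of contrasts called 340 of them higher and 1 lower. Genes of 200 kb or more made up 20.2% of the 2294 higher genes and 6.84% of all genes tested.

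For genes of 200 kb or more, replicate 1 stood apart in the same direction in each line. The median log2 ratio of treated to untreated for genes of 200 kb or more was -0.40 at replicate 1 in T24, against -1.07 and -0.92 at replicates 3 and 4. The values in 5637 were -0.44 at replicate 1, against -1.43 and -0.98. TCC-SUP had -0.67 at replicate 1, against -1.55 and -1.10. The median was below 0 at every replicate number and smallest in size at replicate 1 in each line. The share of all reads that fell in these genes was 3.17% in treated replicate 1 of T24, against 2.47% and 2.78% in replicates 3 and 4. It was 3.54% against 2.34% and 3.11% in 5637, and 3.8% against 2.43% and 3.1% in TCC-SUP. In untreated libraries the share lay between 3.77% and 5.37%. Exon length was examined within span classes. Among genes of 200 kb or more the median contrast was 0.86 in 28 genes with under 2 kb of exons, 0.59 in 118 genes with 2 to 4 kb, 0.64 in 390 with 4 to 8 kb and 0.57 in 693 with 8 kb or more. Among genes under 50 kb the medians for the same exon lengths were 0.09, 0.05, -0.03 and -0.05.

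**Figure D1:**
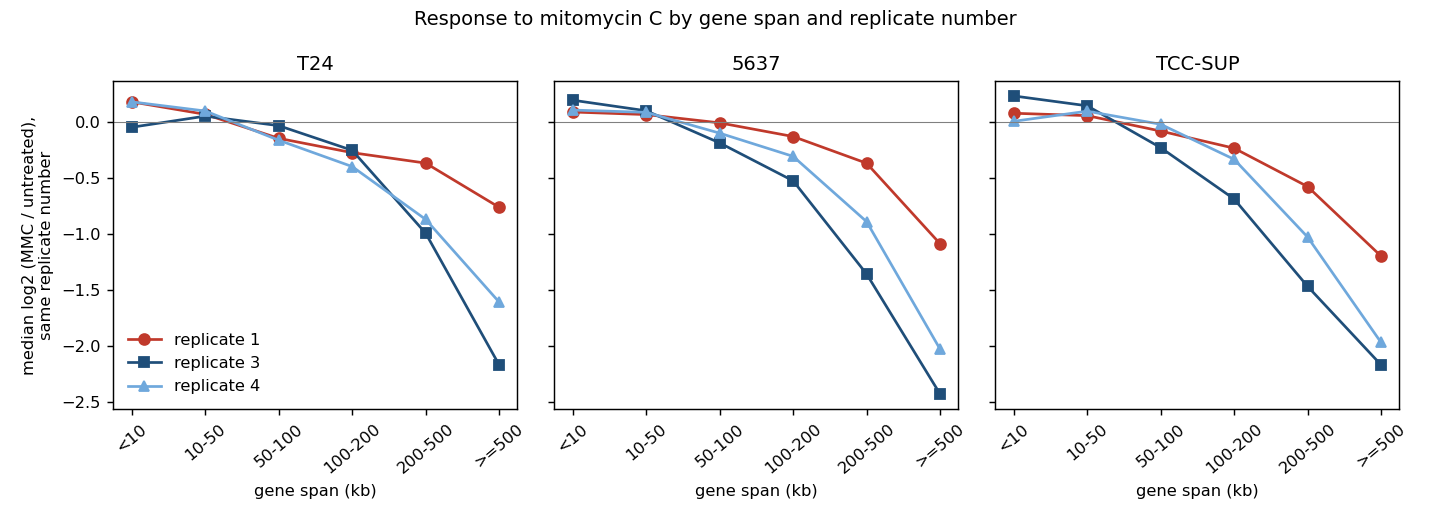
Median log2 ratio of MMC to untreated libraries (y axis) by gene span in kb (x axis), one panel per line and one curve per replicate number, over genes with a mean of at least 1 CPM in that line. For genes of 200 kb or more the replicate 1 curve lies above those of replicates 3 and 4 in all 3 panels.

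Of the 12 genes with the largest rises in treated replicate 1 under the naming rule, 11 spanned 200 kb or more. The rule asked for an adjusted p under 0.05, at least 10 CPM, and the replicate 1 library on the same side of both others in every line. CTIF (chromosome 18, 48539046 to 48863217), a factor of translation initiation, had 31.5 CPM in treated replicate 1 of T24, against 2.14 and 5.91 CPM in replicates 3 and 4. It had 5.14 CPM against 0.717 and 1.05 CPM in 5637, and 30.6 CPM against 8.69 and 9.29 CPM in TCC-SUP. The treated groups did not overlap within any line, which the naming rule required of every gene named by it, with a log2 difference of 2.43 ± 0.26 (SE, n = 3 against 6, adjusted p = 0.000118). Untreated libraries of CTIF had a log2 difference of 0.12 (adjusted p = 0.693).

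VAV2 (chromosome 9, 133761894 to 133992604), a guanine nucleotide exchange factor, stood at its untreated level in treated replicate 1 of T24. Its level there was 159 CPM in treated replicate 1, against 35.4 and 67.8 CPM in treated replicates 3 and 4, and untreated T24 had 156 CPM at replicate 1, against 163 and 137 CPM. In 5637 the treated levels were 90.1 CPM at replicate 1, against 22.0 and 31.4 CPM, and in TCC-SUP they were 39.2 CPM, against 10.1 and 14.3 CPM. Treated replicate 1 lay above both other libraries in each line, as the rule required, by 1.69 ± 0.18 on the log2 scale (SE, adjusted p = 0.000118), and the treated contrast exceeded the untreated one by 1.74 ± 0.23 (adjusted p = 0.000868).

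GLI2 (chromosome 2, 120735623 to 120992653), a transcription factor of Hedgehog signalling, had 7.91 CPM in treated replicate 1 of T24, against 1.09 and 1.98 CPM. The levels were 28.0 CPM against 3.94 and 9.0 CPM in 5637, and 21.8 CPM against 3.88 and 8.11 CPM in TCC-SUP. Its drug response was -0.30 log2 at replicate 1 (adjusted p = 0.144), -3.26 at replicate 3 and -2.11 at replicate 4. FAF1 (chromosome 1, 50437028 to 50960263), a Fas-associated factor, had 65.1 CPM in treated replicate 1 of T24, against 21.5 and 35.6 CPM, 44.4 CPM against 12.2 and 17.0 CPM in 5637, and 36.1 CPM against 12.7 and 15.3 CPM in TCC-SUP. GLI2 is among the 12 largest rises. FAF1, like VAV2, is not, and was named by the p-value of the difference between treated and untreated contrasts. That rule also asked for the replicate 1 library on the same side of both others in every line.

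The other named rises behaved alike in size. TENM2, FRMD3, FHOD3, SH3PXD2A, GRK5, CCBE1, SBF2, RPTOR and FRMD5, all of 200 kb or more, were higher in treated replicate 1 by 1.82 to 2.34 on the log2 scale. RPTOR, the substrate-binding subunit of the growth kinase complex mTORC1, had 38.4 CPM against 3.23 and 11.6 CPM in treated T24. TENM2 and SH3PXD2A were under 5 CPM in all T24 libraries, and FRMD3 was under 1 CPM in all TCC-SUP libraries, so those lines add little to their values. DHRS3, which reduces retinaldehyde, was the exception in span (49.8 kb). It had a log2 difference of 2.12 (SE 0.33), but untreated replicate 1 also had higher levels in every line, by 1.08 (adjusted p = 0.439), and the 2 contrasts did not differ at the threshold (adjusted p = 0.306). Among the 8 genes with the strongest evidence that the treated contrast was above the untreated one, TENM3, CHST11 and NXN had treated differences of 1.14, 1.59 and 1.55.

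HDAC4 and CDH4, long genes named whatever their values, did not show the same contrast. HDAC4 (chromosome 2, 239048168 to 239401654), a histone deacetylase, had 1.34 CPM in treated replicate 1 of T24, against 0.0874 and 0.194 CPM. It had 7.2 CPM against 0.677 and 1.53 CPM in 5637, and 1.85 CPM against 0.808 and 0.549 CPM in TCC-SUP. Treated replicate 1 was higher by 2.38 ± 0.34 (SE, adjusted p = 0.000536), with responses of -2.29, -4.85 and -4.30 at replicates 1, 3 and 4. CDH4, a cadherin of 688.2 kb, had 4.76 CPM against 3.98 and 3.1 CPM in treated T24 and 0.805 CPM against 0.797 and 0.814 CPM in treated 5637, and it was at most 0.0903 CPM in TCC-SUP. Untreated libraries had 44.1 to 63.5 CPM in T24 and 24.6 to 26.2 CPM in 5637. Its log2 difference was 0.29 ± 0.30 (adjusted p = 0.521), and its responses were -2.49, -2.58 and -2.63. Treated replicate 1 was highest in T24 and lay between the others in 5637.

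**Figure D2:**
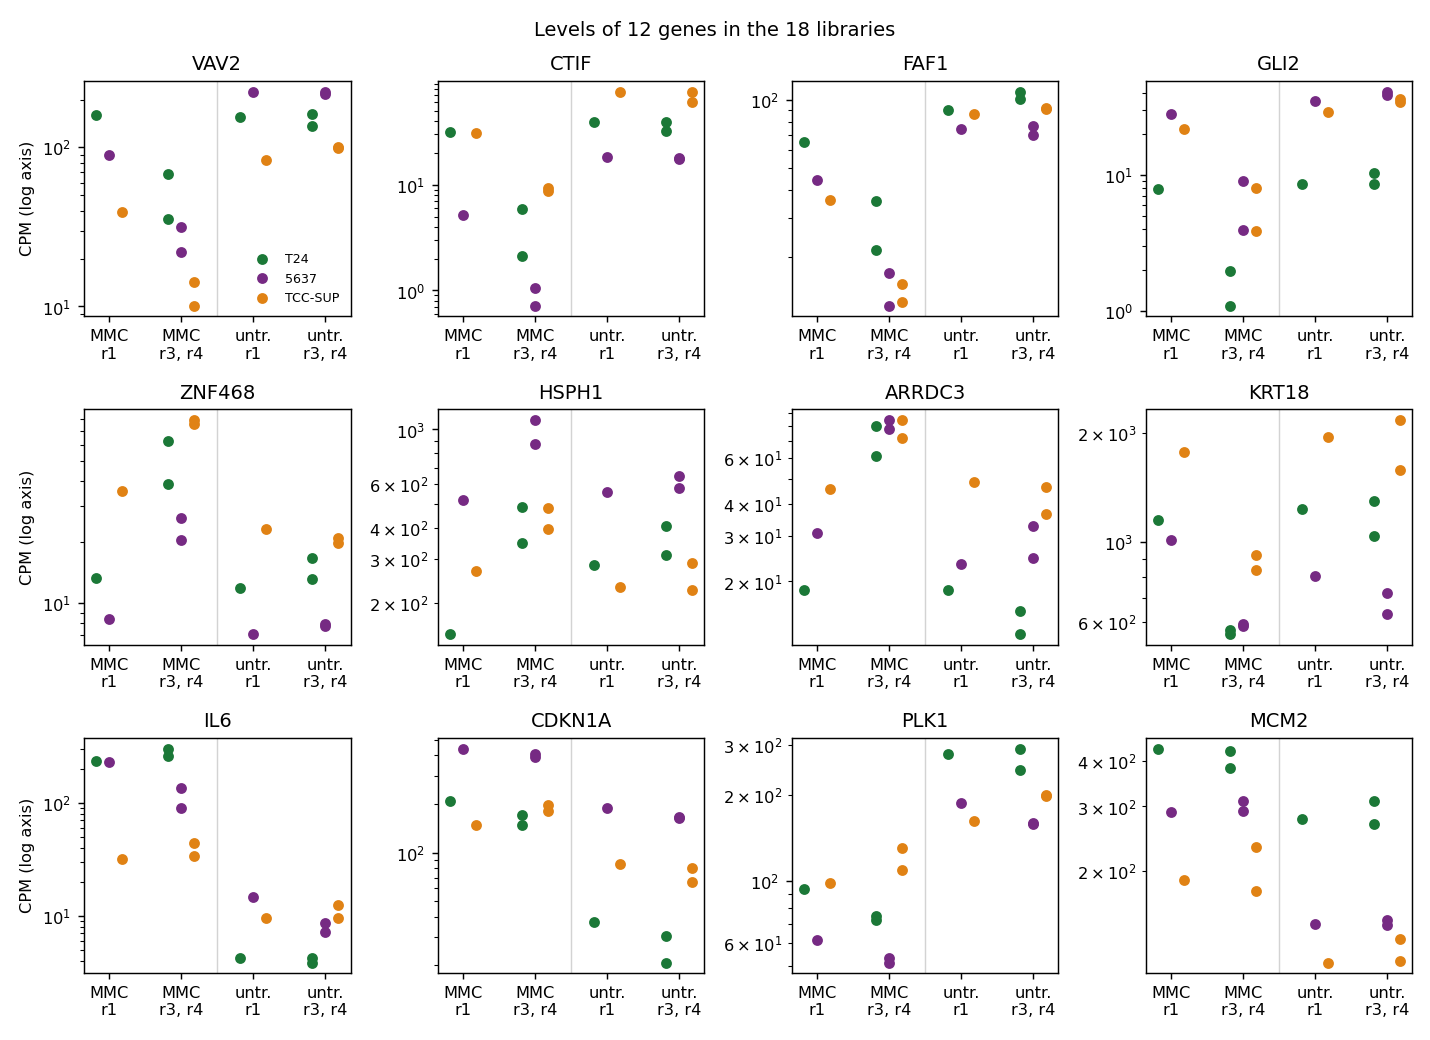
Levels of 12 genes in CPM (log y axis) in each of the 18 libraries, coloured by line; on the x axis treated replicate 1 stands left of treated replicates 3 and 4, followed by the untreated libraries in the same order. VAV2, CTIF, FAF1 and GLI2 are higher in treated replicate 1 than in both other treated libraries of every line, ZNF468, HSPH1 and ARRDC3 lower, and IL6, CDKN1A, PLK1 and MCM2 have no such order across lines.

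Of the 1897 genes lower in treated replicate 1, 1464 spanned under 50 kb, as did 12212 of all genes tested. SERPINB10 (chromosome 18, 63897174 to 63936111), a serine protease inhibitor, had the largest log2 fall among the named genes. In 5637 it had 0.671 CPM in treated replicate 1, against 29.2 and 15.7 CPM in replicates 3 and 4. In TCC-SUP it had 0.632 CPM against 9.42 and 10.7 CPM, and in T24 it was at 0 against 0.787 and 1.07 CPM. Untreated libraries had 0 to 0.661 CPM. As the naming rule required, the treated groups did not overlap, with a log2 difference of -4.61 ± 0.37 (SE, adjusted p = 0.000008).

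Several regulators of signalling and growth were among the named falls. ARRDC3, CRY2, SLC6A8, SLC41A1, TP53INP2 and PCYOX1L were named for the difference of contrasts and are not among the 12 largest falls. ARRDC3 (chromosome 5, 91368724 to 91383359), an arrestin-like adaptor, had 18.5 CPM in treated replicate 1 of T24, against 79.7 and 61.1 CPM. It had 30.7 CPM against 78.0 and 83.9 CPM in 5637, and 45.4 CPM against 84.1 and 71.8 CPM in TCC-SUP. Treated replicate 1 lay below both others in each line, as the rule required, by -1.34 ± 0.19 (SE, adjusted p = 0.00051), and untreated libraries had 12.5 to 48.4 CPM. ID2, an inhibitor of helix-loop-helix transcription factors, was lower by -1.44 and CRY2, a circadian repressor, by -1.25. SLC6A8, the creatine transporter, was lower by -1.07, SLC41A1, a magnesium transporter, by -0.84 and TP53INP2, an autophagy regulator, by -0.74. CCDC168, RSRP1, ZBTB41, KLHL15 and LRRC4 were lower by -3.19 to -1.50, and PCYOX1L by -1.13. The treated contrasts of LRRC4 and CCDC168 did not differ from the untreated ones at the threshold (adjusted p = 0.325 and 0.19), nor did that of ZNF721 (adjusted p = 0.0858).

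Many zinc finger genes were lower in treated replicate 1. The class encodes DNA-binding proteins, many of them KRAB repressors that lie in clusters on chromosome 19. The class was formed after the values were seen, from symbols that begin with ZNF and a number, and 5 of the 12 named falls belong to it. Of 467 such genes tested, 188 (40.3%) were lower in treated replicate 1 and 17 (3.64%) were higher, with a median of -0.47 against 0.06 in all genes. Within lines the median, over members with at least 1 CPM there, was -0.724 in T24, -0.465 in 5637 and -0.243 in TCC-SUP. On chromosome 19 the counts were 107 lower (46.7%) and 1 higher of 229, with a median of -0.59. Elsewhere they were 81 lower (34%) and 16 higher of 238, with a median of -0.30. Other protein-coding genes of 10 to 50 kb, the span of most of this class, had 759 lower (13.3%) and 652 higher (11.4%) of 5695. The median in untreated libraries was -0.06, with 0 calls. Median drug responses were 0.13, 0.56 and 0.46 at replicates 1, 3 and 4.

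ZNF468 (chromosome 19, 52838008 to 52890375) had 13.3 CPM in treated replicate 1 of T24, against 62.5 and 38.6 CPM. It had 8.32 CPM against 26.3 and 20.4 CPM in 5637, and 35.6 CPM against 79.1 and 76.1 CPM in TCC-SUP. As for all genes named by the rule, the treated groups did not overlap, with a log2 difference of -1.49 ± 0.19 (SE, adjusted p = 0.00035), and the treated contrast was below the untreated one by -1.41 ± 0.24 (adjusted p = 0.003). ZNF525, ZNF845, ZNF816 and ZNF721 were lower by -1.71 to -1.41, and ZNF267, named only for the difference of contrasts, by -1.20. Paralogs of this family share sequence, so values of single members are uncertain.

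**Figure D3:**
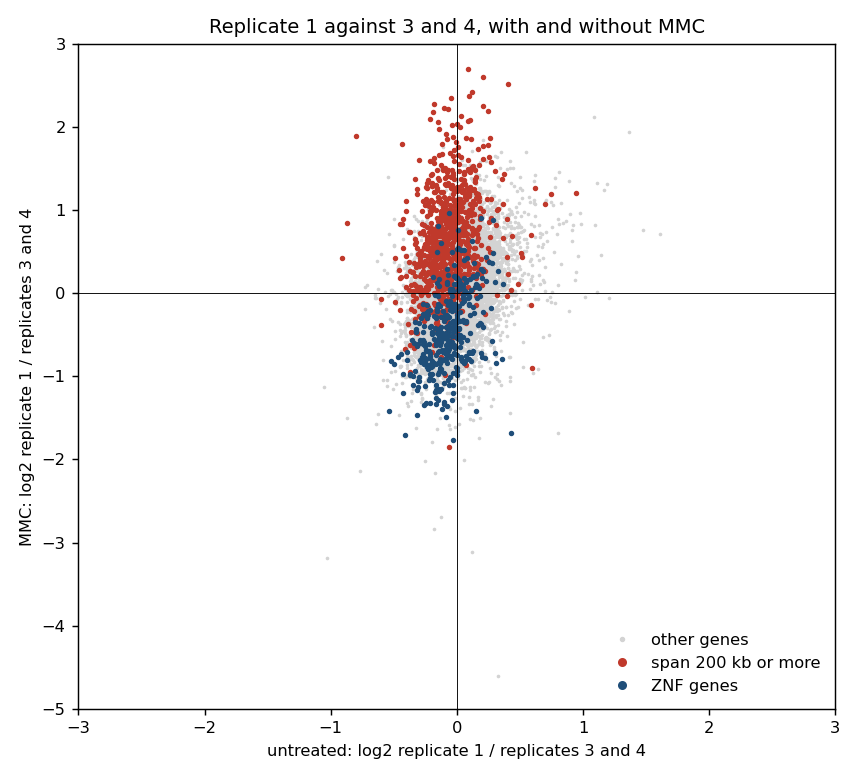
Log2 of replicate 1 over replicates 3 and 4 in untreated libraries (x axis) and in MMC libraries (y axis), 1 point per gene with a mean of at least 5 CPM in one group, for 831 genes of 200 kb or more, 380 ZNF genes and 10667 others. Most genes of 200 kb or more lie above 0 and most ZNF genes below 0 on the y axis, and both classes centre near 0 on the x axis.

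Histone and heat shock genes were also lower in treated replicate 1. Among 13 replication-dependent histone genes tested (18 of 36 listed were in the table), 6 were lower, against 10.6% of all genes, and 0 higher, with a median of -0.79. The lower calls numbered 3 without T24, 2 without 5637, 3 without replicate 3 and 3 without the treated replicate 1 library of T24 or of 5637. In the fit with all lines, all 6 were also called in the difference of contrasts. Their median responses were -0.18, 0.87 and 0.46 at replicates 1, 3 and 4. HIST1H2BK had 7.45 CPM in treated replicate 1 of T24, against 22.4 and 21.3 CPM. It had 10.6 CPM against 19.6 and 23.8 CPM in 5637, and 54.6 CPM against 105 and 75.2 CPM in TCC-SUP, without overlap in any line (log2 difference -1.07 ± 0.18, SE, adjusted p = 0.00116). Most histone mRNAs of this kind lack a poly(A) tail, so a poly(A) library holds only a part of them, and their copies are nearly identical.

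Of 13 heat shock genes, 6 were lower, against 10.6% of all genes, and 0 higher, with a median of -0.47. The median was -0.21 in the untreated contrast and -0.17 in the difference of contrasts. Calls numbered 2 without T24, without its treated replicate 1 library or without 5637, and 3 without the treated replicate 1 library of 5637. HSPH1, a large chaperone of the HSP110 family, had 149 CPM in treated replicate 1 of T24, against 485 and 347 CPM. It had 521 CPM against 1090 and 873 CPM in 5637, and 269 CPM against 397 and 480 CPM in TCC-SUP. Each line had its lowest treated level at replicate 1, by -1.02 ± 0.16 (SE, adjusted p = 0.000792). HSPA1A, HSPA1B, DNAJA1, HSP90AA1 and BAG3 were lower by -0.88 to -0.47. Only HSPH1 of this list was also called in the difference of contrasts. HSPA1A and HSPA1B are near-identical copies, and HSPA1A lost its call without T24 and without 5637.

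Inflammatory genes rose after MMC at each replicate number. Of 25 NF-kB targets and cytokines, 23, 20 and 21 were raised at replicates 1, 3 and 4, with median responses of 1.98, 1.73 and 2.06. The replicate contrast of treated libraries called 4 of them higher (16%, against 12.8% of all genes) and 0 lower, with a median of 0.21. The called members were CXCL1, CCL2 and CSF3, which recruit or mobilise leukocytes, and LIF, a cytokine of the IL-6 family, at 0.60 to 1.42. Without 5637 the list's median was -0.04, with 0 higher and 2 lower, and without T24 0 were called in either direction. None of the 4 was called in the difference of contrasts.

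IL6, the cytokine interleukin 6, had 236 CPM in treated replicate 1 of T24, against 301 and 261 CPM in replicates 3 and 4, 229 CPM against 89.3 and 134 CPM in 5637, and 31.7 CPM against 33.7 and 44.4 CPM in TCC-SUP. Treated replicate 1 was thus highest in 5637 and lowest in the other lines, and the log2 difference was 0.21 ± 0.21 (SE, adjusted p = 0.518). Its responses were 3.85, 3.91 and 3.94 at replicates 1, 3 and 4. CXCL8, which attracts neutrophils, had 1430 CPM against 813 and 1010 CPM in treated T24, 3250 CPM against 927 and 1670 CPM in treated 5637, and 1.22 CPM against 2.1 and 3.64 CPM in treated TCC-SUP. The difference was 0.61 ± 0.36 (adjusted p = 0.255). Of 22 immediate-early and AP-1 genes, 3 were higher (JUND, MYC and KLF2) and 2 lower (FOSB and EGR3). These are 13.6% and 9.09%, near the 12.8% and 10.6% of all genes. The median of this list was 0.08, and -0.20 without T24. Without T24 the calls were 0 higher and 3 lower, and without 5637 1 and 1. Median responses of this list were 1.24, 0.88 and 1.09. Within lines they were 1.59, 0.63 and 0.98 in T24, 1.02, 1.05 and 1.17 in 5637, and 0.34, 0.39 and 0.56 in TCC-SUP. ATF3, a stress-induced repressor, had responses of 3.65, 4.52 and 3.85, and its replicate contrast was -0.50 ± 0.20 (adjusted p = 0.0795).

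Genes picked for a strong response at replicate 3 were followed at the other numbers. A log2 rise of at least 1 in every line at replicate 3 was seen in 352 genes, and their median response was 0.80 at replicate 1 and 1.42 at replicate 4, both of which come from libraries not used to pick them. The response was smaller at replicate 1 than at replicate 4 in 326 of the 352 (92.6%). The 17 of them on the NF-kB or AP-1 lists had medians of 2.20 at replicate 1 and 2.47 at replicate 4, while 30 ZNF genes had 0.61 and 1.31. Replicate 1 was the smaller in 13 of these 17 (76.5%) and in 29 of the 30 ZNF genes (96.7%). A pick of risers at replicate 4 in the same way also held 17 genes of the NF-kB or AP-1 lists. Their medians were 2.20 at replicate 1 and 2.21 at replicate 3, and replicate 1 was the smaller in 7 of them. The 14 ZNF genes of that pick had 0.78 and 1.61, with replicate 1 the smaller in 14. A fall of at least 1 in every line at replicate 3 was seen in 664 genes, with medians of -0.77 at replicate 1 and -1.44 at replicate 4. Of these 664, 372 spanned 200 kb or more, with medians of -0.84 and -1.62. Genes picked in the same way at replicate 1 were fewer, 73 risers and 106 fallers. The 73 risers had a median of 1.56 at replicate 3 and 1.84 at replicate 4. Their median of 1.59 at replicate 1 comes from the libraries that picked them, so it cannot be compared with those values.

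**Figure D4:**
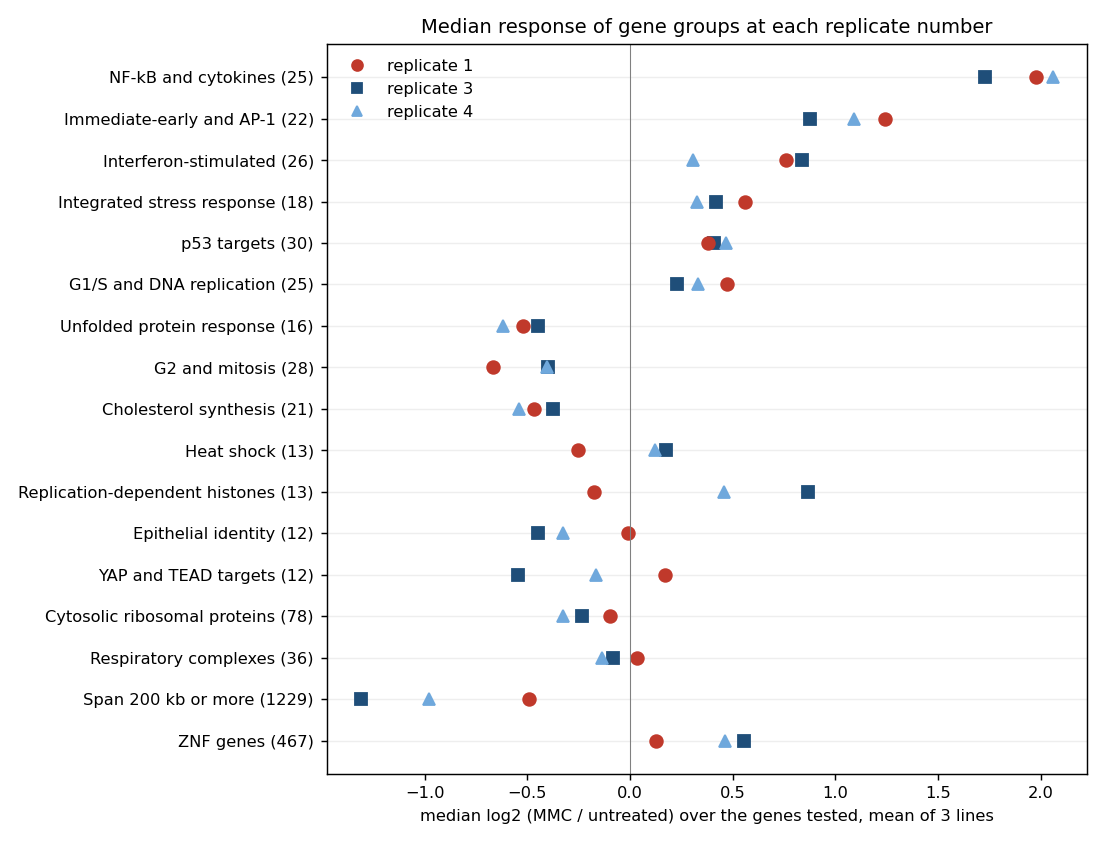
Median log2 ratio of MMC to untreated libraries (x axis, mean of the 3 lines) for 15 gene lists, genes of 200 kb or more and ZNF genes, with the number of genes tested in parentheses and 1 symbol per replicate number. The NF-kB list has medians of 1.98, 1.73 and 2.06 at replicates 1, 3 and 4, while genes of 200 kb or more have -0.49, -1.31 and -0.98 and histones -0.18, 0.87 and 0.46.

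Of 30 targets of p53, 13, 13 and 17 were raised and 1 was lowered at replicates 1, 3 and 4, with medians of 0.38, 0.41 and 0.47. Over all genes 10.8%, 20.9% and 17.6% were raised. In the replicate contrast 5 were higher (GDF15, BAX, SESN2, DDB2 and PHLDA3) and 6 lower (PMAIP1, ZMAT3, RRM2B, XPC, TP53INP1 and TIGAR), against 12.8% and 10.6% of all genes, with a median of -0.09. The calls were 0 and 2 without T24 or its treated replicate 1 library, 1 and 2 without 5637 or its treated replicate 1 library, and 0 and 3 without replicate 4. CDKN1A, the cell cycle inhibitor p21, had 209 CPM in treated replicate 1 of T24, against 148 and 170 CPM. It had 440 CPM against 390 and 407 CPM in 5637, and 148 CPM against 196 and 182 CPM in TCC-SUP. Treated replicate 1 was highest in T24 and 5637 and lowest in TCC-SUP, and the log2 difference was 0.07 ± 0.13 (SE, adjusted p = 0.741). MDM2, the ubiquitin ligase that degrades p53, differed by -0.29 ± 0.14 (adjusted p = 0.142). GDF15, a stress cytokine, was higher by 1.09 ± 0.31 (adjusted p = 0.0192), a value that rests on T24, with 36.0 CPM against 9.31 and 13.1 CPM there and 0.05 without that line. Untreated replicate 1 also had higher GDF15 levels in every line, by 0.82 (adjusted p = 0.30). The treated and untreated contrasts of GDF15 did not differ at the threshold (0.33, adjusted p = 0.662).

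Of 23 apoptosis genes, 4 were higher and 5 lower, against 12.8% and 10.6% of all genes, with a median of -0.10 that was 0.04 without replicate 4. Without T24 1 and 2 were called, without 5637 1 and 3, and without replicate 4 2 and 3. BCL2L11, which encodes the death-promoting BH3 protein BIM, had 14.1 CPM in treated replicate 1 of T24, against 51.3 and 33.2 CPM. It had 42.3 CPM against 98.6 and 91.6 CPM in 5637, and 28.6 CPM against 49.6 and 44.0 CPM in TCC-SUP, lowest in treated replicate 1 in each line (log2 difference -1.13 ± 0.18, SE, adjusted p = 0.000877). BCL2L1, which encodes the death inhibitor BCL-XL, was highest there in each line, by 0.64 ± 0.13 (adjusted p = 0.00288), and had 499 CPM against 238 and 295 CPM in T24. Both were also called in the difference of contrasts. BAX, BID and BAD were higher by 0.38 to 0.48, and PMAIP1 and BIRC2 lower by -0.54 and -0.65.

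Of 18 genes of the integrated stress response, 8 were higher (44.4%, against 12.8% of all genes) and 1 lower, with a median of 0.29. Higher calls numbered 5 without T24, without 5637 or without replicate 4. TRIB3, a pseudokinase induced by ATF4, had 372 CPM against 115 and 188 CPM in treated T24, 54.1 CPM against 27.7 and 28.8 CPM in 5637, and 39.3 CPM against 24 and 22.8 CPM in TCC-SUP. Treated replicate 1 was highest in each line, by 1.01 ± 0.15 (SE, adjusted p = 0.000688). DDIT4, CHAC1, ATF4, PSAT1, SESN2, CEBPB and NUPR1 were higher by 0.44 to 1.10, while ASNS, asparagine synthetase, was lower by -1.11. The difference of contrasts called TRIB3 and PSAT1 higher and ASNS lower. Untreated libraries had a median of 0.19 over this list with 0 calls. DDIT3, the transcription factor CHOP, differed by -0.20 ± 0.15 (adjusted p = 0.347). Of 16 unfolded protein response genes, 0 were higher and 3 lower (DNAJB9, DNAJC3 and HSP90B1). The lower calls are 18.8%, against 10.6% of all genes. The median of this list was -0.08, and 0.03 without TCC-SUP, with 0 calls without T24 or without 5637. HSPA5, the chaperone BiP, differed by 0.07 ± 0.15 (adjusted p = 0.766) with responses of -1.22, -1.39 and -1.51.

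Mitotic genes were lowered by MMC at each replicate number, with medians of -0.67, -0.40 and -0.41 over 28 genes at replicates 1, 3 and 4. In the replicate contrast 6 were lower in treated replicate 1 (BUB1, CENPE, KIF20A, KIF23, MKI67 and HMMR, at -0.87 to -0.48) and 0 higher, with a median of -0.29, against 10.6% of all genes lower. The lower calls numbered 0 without T24, 0 without 5637, 0 without the treated replicate 1 library of T24 and 2 without that of 5637. The median response was largest in size at replicate 1 in T24 and 5637, but in TCC-SUP it was -0.30 at replicate 1, against -0.40 and -0.18 at replicates 3 and 4. PLK1, a mitotic kinase, differed by 0.10 ± 0.14 (adjusted p = 0.621) and CCNB1, cyclin B1, by -0.30 ± 0.13 (adjusted p = 0.106). Of 25 genes of the G1/S transition and DNA replication, 3 were higher (TYMS, MCM7 and POLA1) and 4 lower (CDC6, ORC1, MCM6 and MCM10). These are 12% and 16%, against 12.8% and 10.6% of all genes. The median of this list was 0.02, and -0.02 without replicate 4. Without T24 1 and 0 were called, and without 5637 0 and 0. MCM2, a subunit of the replicative helicase, had 432 CPM against 383 and 425 CPM in treated T24, 290 CPM against 310 and 292 CPM in 5637, and 189 CPM against 232 and 176 CPM in TCC-SUP, with a log2 difference of -0.02 ± 0.12 (adjusted p = 0.925). CCNE2, cyclin E2, differed by -0.47 ± 0.17 (adjusted p = 0.0555).

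Of 12 epithelial identity genes, 5 were higher in treated replicate 1 (41.7%, against 12.8% of all genes), among them the keratins KRT18, KRT7, KRT19 and KRT8, and 1 lower (OVOL1), with a median of 0.53. Higher calls numbered 3 without 5637. The basal keratins KRT5, KRT14, KRT6A and KRT17 did not pass, with log2 differences of 0.09 to 0.72 (adjusted p = 0.065 to 0.803). KRT18 had 1150 CPM in treated replicate 1 of T24, against 556 and 572 CPM. It had 1010 CPM against 593 and 585 CPM in 5637, and 1770 CPM against 836 and 919 CPM in TCC-SUP. The treated groups did not overlap, with a log2 difference of 0.94 ± 0.11 (SE, adjusted p = 0.000155), and responses were 0.03, -0.81 and -0.75. KRT7, KRT19, KRT8 and the tight junction gene CLDN7 were higher by 0.48 to 1.08. KRT18, KRT19 and KRT7 were also called in the difference of contrasts. Over the 12 genes the summed level was 6560 CPM in treated replicate 1 of T24, against 3270 and 3300 CPM, 5830 CPM against 4330 and 4230 CPM in 5637, and 2230 CPM against 1100 and 1220 CPM in TCC-SUP.

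Of 12 YAP and TEAD targets, 4 were higher (AJUBA, F3, AXL and CRIM1), against 12.8% of all genes, and 0 lower, with a median of 0.41 and responses of 0.17, -0.54 and -0.17. The higher calls numbered 0 without T24 or its treated replicate 1 library, 0 without 5637 and 1 without the treated replicate 1 library of 5637. Among 15 ERBB ligands and EMT factors (median 0.18, and -0.06 without replicate 3), NRG1 (neuregulin 1) and CDH2 were higher by 1.09 and 0.54, and SNAI1, a repressor of CDH1, was lower by -1.07; all 3 were called in the difference of contrasts. NRG1 spans 1129 kb. Of the urothelial lists, PPARG (1 of 5 luminal genes tested, median 0.29) and TP63 and ITGB4 (2 of 8 basal genes, median 0.37, 1 called without T24, without 5637 or without replicate 4) were higher. ITGB4, an integrin subunit, was 1 of 2 genes (0.0111%) whose replicate contrast differed among the lines. It had 46.3 CPM against 7.34 and 6.39 CPM in treated T24, and 1030 CPM against 852 and 872 CPM in treated 5637. The other was RBBP8, a DNA end resection factor. The test by line had 3 residual degrees of freedom and a single treated replicate 1 library per line. A gene that it did not call may therefore still differ among the lines. PDGFRB and COL3A1 (of 9 fibroblast markers, median 0.41) and CDH5 and TEK (of 5 endothelial markers tested, median 1.15) were higher in treated replicate 1, and 0 of 2 immune markers tested were called (median -0.21). The fibroblast list had a median of 0.59 in the untreated contrast and -0.09 in the difference of contrasts, and 0 calls without T24, without 5637, without TCC-SUP or without replicate 4. The endothelial list had 1 call without T24 or without 5637. The 6 endothelial markers listed summed to 49.9 CPM in treated replicate 1 of TCC-SUP, against 15.9 and 23.8 CPM, to 9 CPM against 2.11 and 3.02 CPM in T24, and to at most 1.39 CPM in 5637. In treated replicate 1, TEK made 48.6 CPM of the TCC-SUP sum and CDH5 8.18 CPM of the T24 sum. TEK was at most 0.0511 CPM in T24 and CDH5 at most 0.421 CPM in TCC-SUP, so different genes carried the 2 sums.

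Among 21 crosslink repair genes, which act on the lesion, 1 was higher and 4 lower, against 12.8% and 10.6% of all genes (the lower ones FANCM, BRCA2, PALB2 and ERCC4, at -0.88 to -0.52), with a median of 0.06 that was -0.03 without TCC-SUP. Without T24 or without 5637 0 were lower. The higher one was FANCC (chromosome 9, 95099054 to 95426796), a subunit of the Fanconi anaemia core complex and a gene of 327.7 kb. It had 30.7 CPM against 9.75 and 14.4 CPM in treated T24, 33.5 CPM against 15.2 and 19 CPM in 5637, and 33.8 CPM against 12.5 and 19.8 CPM in TCC-SUP, by 1.13 ± 0.18 (SE, adjusted p = 0.000808). Treated replicate 1 did not overlap with the others in any line. Of 10 mitomycin-reducing enzymes and efflux pumps, with a median of 0.21 that was -0.01 without TCC-SUP, 1 was called, the pump ABCC1 (193.5 kb), which was higher by 1.00 ± 0.15 (adjusted p = 0.000688). It had 159 CPM against 63.7 and 87.9 CPM in T24, 87.0 CPM against 36.5 and 51.6 CPM in 5637, and 169 CPM against 72.1 and 103 CPM in TCC-SUP.

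Metabolic and housekeeping lists are set against 12.8% of all genes higher and 10.6% lower. Respiratory complexes had 27.8% of genes higher, and cholesterol synthesis 28.6% higher and 23.8% lower. Ribosomal proteins, proteasome subunits, hypoxia and glycolysis and MHC class I had 12.9% to 16.7% higher, and NRF2 targets 10.5% higher and 15.8% lower. Of 78 cytosolic ribosomal protein genes, 13 were higher (16.7%) and 0 lower, with a median of 0.28, with 0 called without T24, without 5637 or without replicate 4 and 46 without TCC-SUP. Of 36 respiratory complex genes, 10 were higher and 1 lower (median 0.28), with 0 called without T24, without 5637, without replicate 4 or without the treated replicate 1 library of T24 or of 5637. Of 31 proteasome subunits 4 were higher and 1 lower (median 0.15), with 0 called without 5637 or without replicate 4. The 13 mitochondrially encoded genes had 0 calls and a median of -0.06, which was above 0 without TCC-SUP. Of 21 cholesterol synthesis genes, 6 were higher (among them MVK, PMVK, LSS and TM7SF2, at 0.60 to 0.83) and 5 lower (among them HMGCS1, IDI1, MSMO1 and SC5D, at -0.92 to -0.49), with a median of 0.12. Without T24 1 and 1 were called, and without 5637 2 and 2. HMGCS1, which makes the precursor of mevalonate, had 28.5 CPM against 80.1 and 55.5 CPM in treated T24, 44.0 CPM against 78.1 and 70.5 CPM in 5637, and 78.9 CPM against 97.5 and 102 CPM in TCC-SUP. It was lowest in treated replicate 1 in each line (-0.76 ± 0.17, SE, adjusted p = 0.00522). INSIG1, a sterol sensor, differed by 0.09 ± 0.14 (adjusted p = 0.69). Without T24 and without 5637 HMGCS1 lost its call. NRF2 targets had 2 higher and 3 lower of 19 (median -0.04, and 0.04 without replicate 4). The NRF2 calls were 0 and 2 without T24, 1 and 0 without 5637 and 0 and 1 without replicate 4. Hypoxia and glycolysis genes had 3 higher and 0 lower of 20 (median 0.09), and MHC class I genes 2 higher and 1 lower of 15 (median 0.0086, and -0.12 without replicate 4). Without 5637 hypoxia calls numbered 1 and MHC calls 0, and without T24 they numbered 0 and 1.

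The contrast of interferon-stimulated genes depended on T24. Of 26 genes, 4 were higher (ISG15, OASL, IFI44 and IFI35, at 0.65 to 1.14) and 0 lower, with a median of 0.34. The higher calls are 15.4%, against 12.8% of all genes. Within lines the median was 1.00 in T24, -0.07 in 5637 and -0.02 in TCC-SUP. In the untreated contrast it was 0.293, 0.0973 and 0.00137. Without T24 the fitted median of the treated contrast was -0.06, with 0 calls. Calls numbered 2 without 5637 or without replicate 3 and 1 without replicate 4. MX1, an antiviral GTPase, had 147 CPM against 91.7 and 42.0 CPM in treated T24, 8.05 CPM against 8.17 and 9.57 CPM in 5637, and 304 CPM against 357 and 341 CPM in TCC-SUP (log2 difference 0.33 ± 0.26, SE, adjusted p = 0.391). Treated replicate 1 was highest only in T24 for this gene.

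In untreated libraries the 5 genes called higher in replicate 1 were LCN2, LUM, BMF, SELENOP and SLPI. BMF, which encodes a BH3 protein, was the only one of the 12 genes named for this contrast that passed, by 0.89 ± 0.13 (SE, adjusted p = 0.00902), with 1.14 CPM against 0.668 and 0.473 CPM in T24, 8.47 CPM against 4.27 and 5.22 CPM in 5637, and 96.8 CPM against 45.8 and 58.4 CPM in TCC-SUP. Its treated contrast was -0.21 (adjusted p = 0.617). LUM, the matrix proteoglycan lumican, was measured in TCC-SUP, with 848 CPM in untreated replicate 1, against 343 and 403 CPM. LCN2 and SLPI were higher in treated replicate 1 as well, by 1.32 and 0.95. The 6 lower genes named for this contrast, AHNAK, DYNC1H1, BMPER, RGMB, FLNC and MDN1, had values of -0.87 to -0.41, and none passed (adjusted p = 0.0581 to 0.164).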

How the data were processed

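Poly(A) RNA was sequenced in 24 libraries, of which the 18 of T24, 5637 and TCC-SUP were used. The values the authors deposited are raw read counts per Ensembl gene. For their making, STAR (2.5.3a), featureCounts (1.6.2) and the build GRCh38 are listed in the submitters' processing notes. Which annotation release was used, whether counting used strand, and how multi-mapping reads were treated is not given in the sources used here; overlapping, antisense and near-identical genes are therefore uncertain. Of 58381 gene IDs, 58216 occur in GENCODE release 29, the source of symbols, coordinates and spans.

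Members, lists and classes were chosen with earlier results of these data known. Genes passing filterByExpr by group (17962, with 99.93% of reads) were scaled by TMM and tested with edgeR 4.0.16 in R 4.3.3 (robust quasi-likelihood fit, Benjamini-Hochberg over all genes, threshold 0.05), a step tested on simulated data. The treated and untreated contrasts had line as block (5 residual degrees of freedom each); their difference used 18 libraries (10), and the response by replicate number 18 libraries (8). Standard errors (SE) belong to log2 differences. Levels are CPM after TMM, except CDH1 and the summed markers, which are CPM of all counts. Named genes are the 12 largest each way in the treated contrast, the 8 smallest p each way in the difference and 6 each way in untreated libraries, with the conditions given above, plus 20 listed genes; not all are given, and list members were named by call and size; some called members are not reported here. No 2 libraries of a group agreed within sampling noise (lowest chi-square per gene 6.45). Depth limits genes under 1 CPM.

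Alternatives were RLE factors, no filter, DESeq2 1.42.0, a shared spread, a replicate block, CLS-439 as a further line, and leaving out lines, replicate numbers and libraries. The test by line, exon-length classes, ZNF class, genes picked at 1 replicate number and CLS-439 on its own were added after seeing the data. CLS-439 is not in the contrast; 0.0238% to 0.0283% of its reads were mitochondrial, against 3.21% to 7.4% in the other lines.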

Additional observations from a re-analysis of the deposited data

Results flagged for a closer look

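The treated contrast of replicate 1 against replicates 3 and 4 differed from the untreated contrast, by an interaction test, at 839 genes with a higher and 473 with a lower treated contrast. Of the genes named for this test, the treated contrast exceeded the untreated one on the log2 scale by 1.38 for TENM3, 1.74 for VAV2, 1.80 for CHST11, 1.49 for NXN, 1.48 for FAF1, 2.30 for GLI2, 2.30 for CTIF and 1.99 for SBF2. It was below the untreated one by -1.17 for ZNF267, -1.42 for CRY2, -1.27 for PCYOX1L, -1.41 for ZNF468, -1.34 for SLC6A8, -1.46 for ARRDC3, -0.96 for TP53INP2 and -0.85 for SLC41A1. The rule by which these genes were named required replicate 1 on the same side of both other treated libraries in every line.

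CLS-439 was not used in the contrast. In its own libraries the median log2 difference of treated replicate 1 over treated replicates 3 and 4 was 0.204 over 864 genes of 200 kb or more, above -0.00432 in its untreated libraries. Genes under 50 kb (8398) had -0.0611 in treated and 0.00416 in untreated libraries. The share of reads in genes of 200 kb or more was 4.76% in its treated replicate 1, against 3.9% and 4.33% in replicates 3 and 4. These are values of single libraries with no test.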

How the results depend on the processing

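All 24 named genes of the treated contrast kept their direction in 288 values over 12 settings, and 284 kept their call. Of the fits without single libraries, only those with the lowest and the highest log2 difference of each gene are among these. Calls in the other such fits were not counted. The 4 lost calls were TENM2 and DHRS3 without replicate 3, CCDC168 with no filter and ID2 without 5637. RLE factors, DESeq2 and a shared spread left the treated counts within 1.5 times; a log2 minimum of 1 gave 571 and 567, CLS-439 as a further line 1171 and 894, leaving out T24 600 and 491, leaving out 5637 733 and 513. Leaving out single libraries gave 688 to 2518 higher and 573 to 2103 lower, without replicate 4 1352 and 1155. The median of genes of 200 kb or more was 0.505 with no filter, 0.512 with CLS-439, 0.419 without replicate 3 and 0.793 without replicate 4. Untreated counts (5 and 0) were 3 higher at a log2 of 1, 8 and 1 with RLE, 95 and 111 with no filter, 5 lower with DESeq2, 0 higher with a shared spread, 10 and 3 with CLS-439, 2 higher without T24, 3 without 5637, 20 and 28 without replicate 3, 15 higher without replicate 4, and 1 to 33 higher and 0 to 6 lower without single libraries. The difference of contrasts had 1261 higher with DESeq2, 44 and 9 without T24, 1 and 0 without 5637, 169 and 42 without replicate 3, and 715 and 270 without replicate 4. Replicate numbers were not taken as pairs, since same-numbered treated and untreated libraries correlated at -0.104 to 0.302. With the replicate block the difference had 1074 and 611 calls, 1263 of all shared with the fit without it, and the responses 337 and 451 at replicate 1, 2381 higher at replicate 3 and 1623 higher at replicate 4. Responses at replicate 1 were 1111 and 1151 without T24 and 525 and 663 without 5637, and without 5637 those at replicate 3 were 2260 and 2533 and at replicate 4 1447 and 1643. The cause was not tested.

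Signs turned for 8 of the 20 listed genes, none of them called. CDKN1A was -0.13 with CLS-439, -0.099 without T24 and -0.099 to 0.27 without single libraries, and IL6 -0.27 without 5637 and -0.27 to 0.44. FOS was 0.072 with CLS-439, 0.28 without 5637, 0.15 without TCC-SUP, 0.089 without replicate 3 and -0.62 to 0.29 without single libraries. EGR1 was -0.032 without T24 and -0.031 to 1.29, HSPA5 -0.15 without 5637, -0.043 without replicate 4 and -0.15 to 0.28, and PLK1 -0.017 with CLS-439, -0.019 without T24 and -0.019 to 0.29. MCM2 was 0.022 without TCC-SUP, 0.041 without replicate 3 and -0.081 to 0.046, and MX1 -0.17 without T24 and -0.17 to 0.60.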
